A study of Drosophila melanogaster with 4 samples.

Results

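The distal X chromosome described here is the stretch of the Drosophila melanogaster X from 1 to 5 Mb of FlyBase release 5, counted from the telomere side. Its members are the enriched H3K9me1 clusters whose midpoint lies in this stretch, and its 200 tiles of 20 kb. ChIP replicate 1 held 532 such clusters of 15404 in all, ChIP replicate 2 held 506 of 14643, and the list for the whole series held 706 of 21525. The stretch was set against the middle X, the 14.4 Mb that follow it, with 1786, 1685 and 2749 clusters in the same lists and 720 tiles.

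The study profiled histone H3 monomethylated at lysine 9 (H3K9me1) by ChIP-seq, in which chromatin fragments bound by an antibody are sequenced, in head nuclei of mixed adult Oregon-R flies, a wild-type strain. Each of the 2 ChIP libraries, for which the labels name new lot 2 of the antibody, had 1 input library of unprecipitated chromatin that carries the same replicate number. Both kinds of library share strain, stage and tissue, the sex of the flies is not stated, and chromatin came from flies of population cages whose heads were separated with sieves. Nothing in the labels ties the replicate numbers to separate fly populations, so a spread over the 2 replicates may be technical only. Head nuclei come from neurons, glia, eye, fat and other cells together, so a cluster cannot be placed in one cell type.

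Lysine 9 of histone H3 can carry 1, 2 or 3 methyl groups. The di- and trimethylated forms are known as marks of heterochromatin that heterochromatin protein 1 binds, while the monomethylated form lies between them and the unmodified lysine and is also known from euchromatin. The distal X is euchromatic, and it is the home of classical loci such as white, which colours the eye, Notch, a receptor of cell fate decisions, and period, a gene of the circadian clock. The gene table used here is on release 6, so no gene was placed on a cluster and no sequence of a cluster is printed.

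H3K9me1 clusters covered more of the distal X than of the middle X in both replicates. Coverage, the percent of bases under clusters, was 39.4% on the distal X and 30.1% on the middle X in replicate 1. In replicate 2 it was 35.5% on the distal X and 27.3% on the middle X. The mean was 37.4 ± 2.74% against 28.7 ± 1.94% (SD, n = 2), and the difference within a replicate was 8.72 ± 0.795 percentage points. Both distal values lay above both middle values, and the difference was larger than the spread between the replicates. An exact two-sided sign permutation test over the within-replicate differences gave p = 0.5, the smallest that 2 replicates allow, and gave the same p for cluster density, score, median width and wide clusters. No comparison of the 2 regions can therefore pass a threshold, and each is given with the size and spread of its values.

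Over the distal X as a whole, the added coverage came with wider clusters more than with more clusters. The distal X held 133 and 126.5 clusters per Mb in replicates 1 and 2, against 124.0 and 117.0 on the middle X, a ratio of 1.08 ± 0.00617. Mean cluster width was 2961 bp and 2806 bp on the distal X, against 2426 bp and 2337 bp on the middle X, a ratio of 1.21 ± 0.0139. Their product is close by arithmetic to the coverage ratio of 1.30 ± 0.00717 (SD, n = 2 for each), as coverage is density times mean width apart from the borders. Median width was 2171.5 bp and 2115.5 bp on the distal X, against 1968 bp and 1924 bp on the middle X. In the series list, whose clusters were wider, the distal X had fewer clusters per Mb than the middle X, 176.5 against 190.9, and its coverage was 60.9% against 53.6%. Against X 5 to 9 Mb alone, the neighbouring stretch of equal length, the distal X was covered 1.21 ± 0.00824 times as much, with a density ratio of 1.01 ± 0.00667 and a mean width ratio of 1.20 ± 0.000558 (SD, n = 2 for each).

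The 4 Mb of the distal X were not alike, and most of the added coverage lay in the first of them. From 1 to 2 Mb, the first megabase of the stretch, clusters covered 58.2% of the sequence in replicate 1 and 53.4% in replicate 2. From 2 to 3 Mb the values were 38.5% and 37.3%, from 3 to 4 Mb 28.0% and 25.0%, and from 4 to 5 Mb 32.7% and 26.2%. The stretch from 1 to 2 Mb stood above each of the 14 windows of 1 Mb on the middle X, which ran between 24.6% and 39.5% in replicate 1 and between 21.8% and 35.7% in replicate 2. The windows from 3 to 4 Mb and from 4 to 5 Mb lay within that range in both replicates. The window from 2 to 3 Mb lay within it in replicate 1 and above it in replicate 2. Without the first megabase, the distal X from 2 to 5 Mb was covered to 31.3 ± 2.50%, only 2.59 percentage points above the middle X. This cut was chosen after the values were seen. From 2 to 5 Mb the density ratio to the middle X was 1.05 ± 0.00962 (SD, n = 2). The mean width ratio was 1.04 ± 0.00411 (SD, n = 2), so width did not lead there. In the series list this part held 194.7 clusters per Mb against 190.9 on the middle X, and the first megabase held 122.

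**Figure D1:**
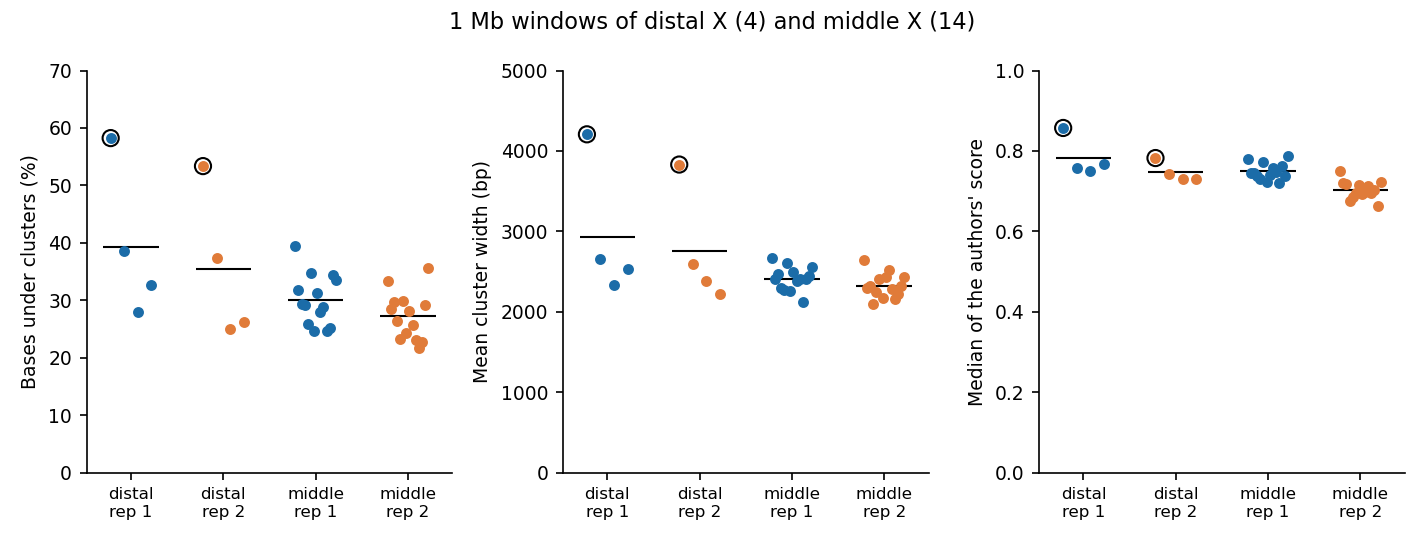
Coverage (left), mean cluster width (middle) and median of the authors' score (right) in windows of 1 Mb, 4 of distal X and 14 of middle X, for each ChIP replicate; points are windows, lines are their means, and the ringed point is the window from 1 to 2 Mb. The ringed windows, with coverage of 58.2% and 53.4%, lie above all middle X windows of the same replicate in each panel.

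The stretch from 1 to 2 Mb was also the most covered megabase of the whole X. It ranked 1 of 22 windows on X in both replicates and in the series list, and 2 of 117 full megabase windows on the 5 chromosome arms in all 3 lists. The median window of the arms was covered to 36.8% in replicate 1 and 32.4% in replicate 2. The neighbouring megabase on the telomere side, from 0 to 1 Mb, was covered to 39.1% and 34.8%, so the high stretch had lower sequence on both sides. Clusters from 1 to 2 Mb were 1.69 ± 0.0669 times as wide on average as those of the middle X and 1.16 ± 0.0535 times as dense (SD, n = 2).

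Windows of 100 kb varied within the first megabase, and high ones went on past its end. The highest mean coverage over the replicates was 68.1 ± 1.45% at 1300001 to 1400000. It was followed by 63.8 ± 8.65% at 1400001 to 1500000, 63.4 ± 1.71% at 1100001 to 1200000 and 61.6 ± 4.53% in the 100 kb before that (SD, n = 2 for each). The leading 3 of these lay above the highest of the 144 such windows on the middle X, at 62.3%. Coverage was lower at 1600001 to 1700000 and 1700001 to 1800000, with 44.0% and 45.6%, and 60.2% at 1800001 to 1900000. In the 3 windows after 2 Mb it was between 48.9% and 56.8%, and at 2600001 to 2700000 it was 26.6 ± 3.63%. Mean coverage was 50% or more in 9 of the 40 distal windows, or 22.5%, against 8 of 144 on the middle X, or 5.56%, and 15.6% of such windows on the 5 arms.

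**Figure D2:**
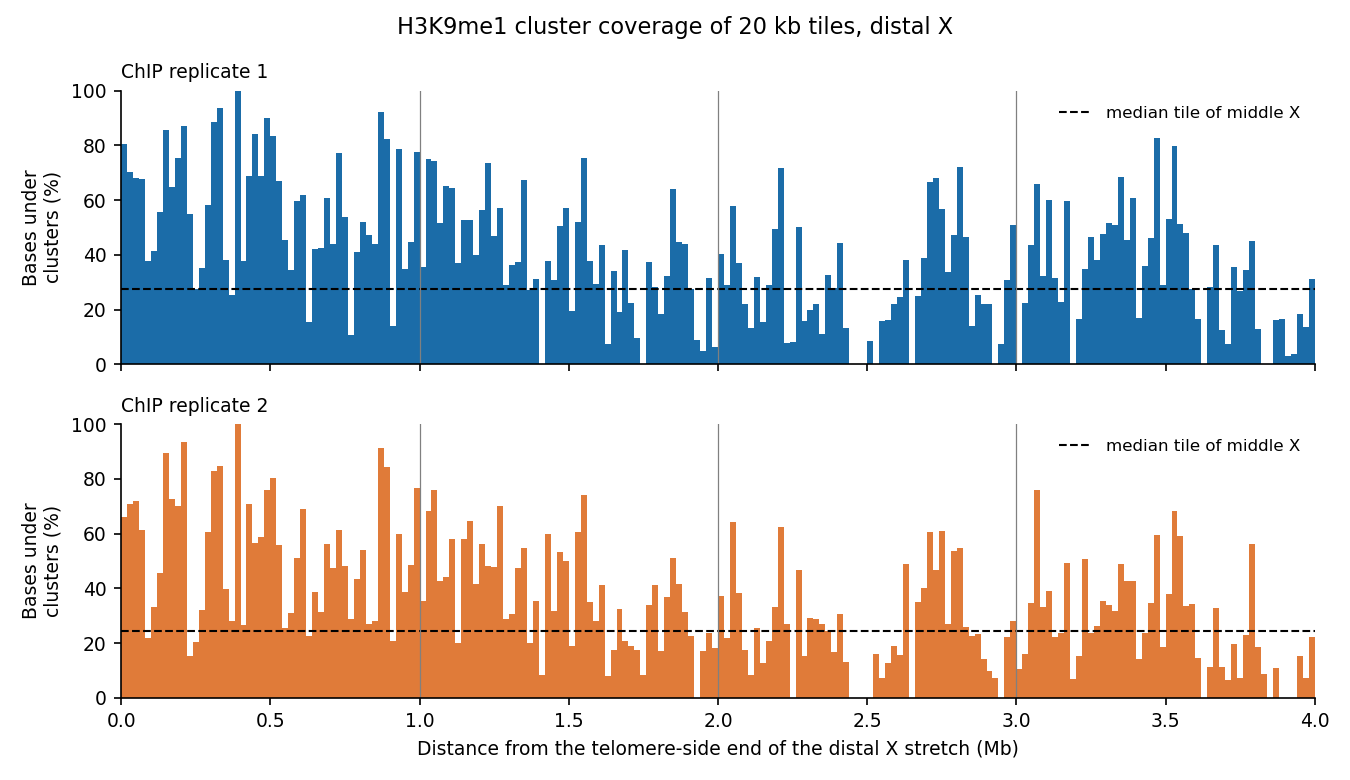
Coverage of the 200 tiles of 20 kb of the distal X in ChIP replicate 1 (top) and replicate 2 (bottom), against the distance in Mb from the telomere-side end of the stretch; the dashed line is the median tile of the middle X, 27.5% in replicate 1 and 24.5% in replicate 2. Both replicates show high tiles in the first megabase and runs of low tiles in the third and at the far end.

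Tile by tile, the replicates gave similar profiles. The median distal tile was covered to 37.6% in replicate 1 and 31.9% in replicate 2, against 27.5% and 24.5% for the median middle tile. Across the 200 distal tiles Pearson's r between the replicates was 0.908 and Spearman's rho 0.902, as a description of tiles that share their libraries. The median absolute difference between the replicates was 7.42 percentage points on the distal X and 6.61 on the middle X. Replicate 1 was higher in 128 distal tiles and replicate 2 in 65.

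High tiles were concentrated in the first megabase. Tiles covered to at least 80% in both replicates numbered 8 of 200 on the distal X, or 4.00%, against 7 of 720 on the middle X, or 0.972%, and 2.03% of all tiles on the 5 arms. All 8 distal ones lay between 1 and 2 Mb. Tiles covered to at least 50% in both replicates numbered 48 on the distal X, or 24.0%, against 77 on the middle X, or 10.7%, and 19.1% over the arms. Of these 48, 27 lay from 1 to 2 Mb, 12 from 2 to 3 Mb, 5 from 3 to 4 Mb and 4 from 4 to 5 Mb. The first megabase was thus above the background of the arms, while the last 2 were below it.

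**Figure D3:**
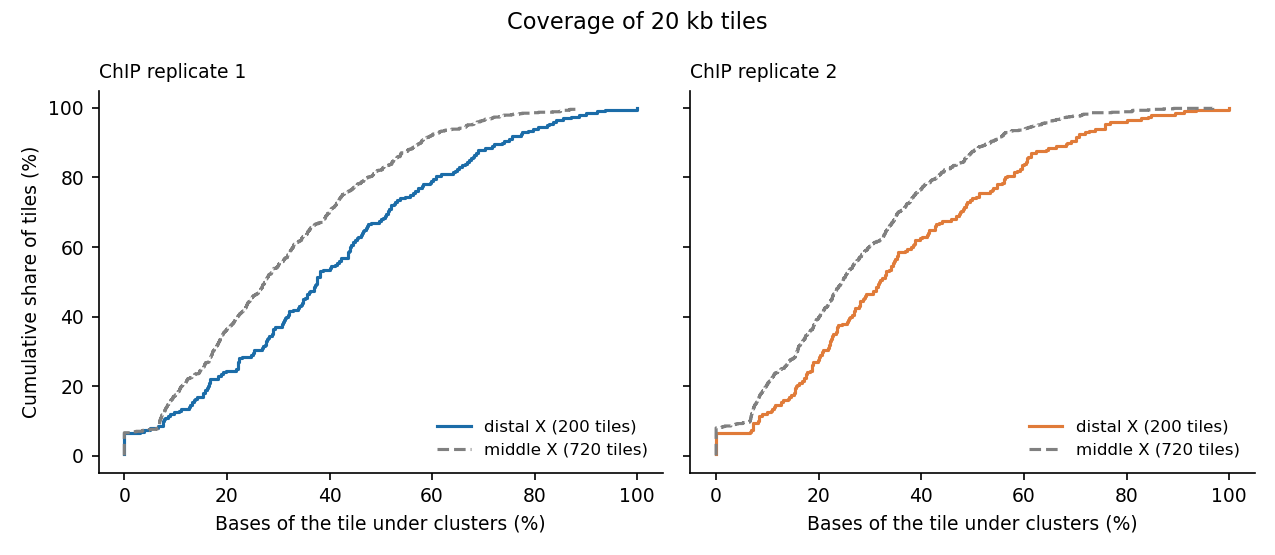
Cumulative share of 20 kb tiles by the percent of their bases under clusters, for distal X (solid, 200 tiles) and middle X (dashed, 720 tiles), in ChIP replicate 1 (left) and replicate 2 (right). The curves start at a similar share of tiles without a cluster, 6.50% against 6.67% in replicate 1 and 6.50% against 8.06% in replicate 2, and the distal curve then runs to the right.

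One tile, at 1380001 to 1400000, was covered to 100% in both replicates. No middle tile reached that value, and the highest there had 88.4% in replicate 1 and 96.8% in replicate 2. The next distal tiles by mean coverage were 1860001 to 1880000, with 92.2% and 91.2% in replicates 1 and 2, and 1200001 to 1220000, with 87.2% and 93.6%. The tile at 1320001 to 1340000 had 93.6% and 84.8%, and that at 1140001 to 1160000 had 85.6% and 89.4%. The remaining 3 of the top 8, at 1300001 to 1320000, 1880001 to 1900000 and 1480001 to 1500000, averaged between 82.9% and 85.8%. Those at 1300001 and 1320001 are neighbours, as are those at 1860001 and 1880001, so the 8 tiles mark 6 separate places.

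High tiles also stood side by side. The longest distal run of tiles with at least 50% in both replicates was 1420001 to 1540000, 120 kb covered to 77.1% in replicate 1 and 66.3% in replicate 2. Runs of 80 kb lay at the telomere-side end of the stretch, with 71.6% and 67.5%, and at 1140001 to 1220000, with 78.3% and 81.5%. A run of 60 kb lay at 1280001 to 1340000, with 80.2% and 76.1%. These 4 were the distal runs of 3 tiles or more, all in the first megabase, and the much longer middle X had 5, the longest of 100 kb. The coverage of neighbouring tiles correlated with r of 0.477 on the distal X and 0.356 on the middle X, and that of tiles 5 places apart with r of 0.285 and 0.0345, given as a description.

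Within the distal X, wide clusters, of 10 kb or more, lay mostly in the first megabase. Replicate 1 held 13 on the distal X, or 3.25 per Mb, against 5 on the middle X, or 0.347 per Mb. Replicate 2 held 6 on the distal X, or 1.50 per Mb, and 5 on the middle X. As a share of clusters this was 2.44% and 1.19% on the distal X, against 0.280% and 0.297% on the middle X. Over the whole of these lists it was 1.31% and 0.908%. Of the distal ones, 10 of 13 and 6 of 6 lay from 1 to 2 Mb, and the remaining 3 of replicate 1 were spread over the other 3 megabases, 1 in each. The mean difference of 2.03 ± 1.24 per Mb (SD, n = 2) had a large spread. Wide clusters were not particular to the stretch: the megabase from 0 to 1 Mb held 5 in replicate 1 and 2 in replicate 2. The widest there in replicate 2 measured 32.5 kb, more than any distal cluster of that replicate. The replicates cut some domains differently: the series cluster at 1116904 to 1128392 held 1 cluster of 11.3 kb in replicate 1, but 2 in replicate 2, the wider of 7.26 kb.

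**Figure D4:**
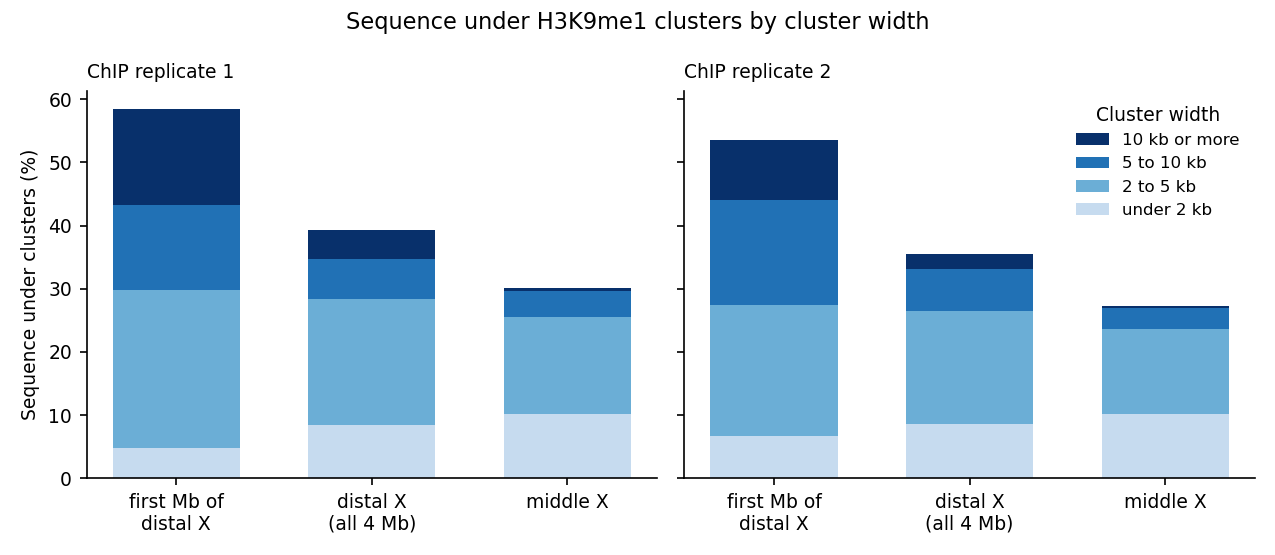
Percent of sequence under H3K9me1 clusters, stacked by cluster width, in the first megabase of the distal X (1 to 2 Mb), the whole distal X and the middle X, for ChIP replicate 1 (left) and replicate 2 (right). Clusters of 10 kb or more took 15.2% and 9.66% of the first megabase, 4.66% and 2.41% of the distal X and 0.379% and 0.416% of the middle X, while clusters under 2 kb took a smaller part of the first megabase than of the middle X.

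Broken down by width, clusters under 2 kb took 8.43% and 8.64% of the distal X in replicates 1 and 2, against 10.2% and 10.1% of the middle X. Clusters of 2 to 5 kb took 20.0% and 17.8% of the distal X, against 15.4% and 13.6% of the middle X. Clusters of 5 to 10 kb took 6.32% and 6.64% of the distal X, against 4.16% and 3.24%. The distal excess therefore lay in each width class from 2 kb upward, and the shortest class ran the other way.

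The widest domain of the distal X was a series cluster at 1304774 to 1343671, 38.9 kb long. Replicate 1 covered 94.7% of it in 4 clusters, the widest of 24.3 kb, and replicate 2 covered 87.5% in 4 clusters, the widest of 23.2 kb. Among the 8 widest, the one at 1378575 to 1400906, 22.3 kb long, was called as 1 cluster in each replicate, of 21.2 kb in replicate 1 and 20.5 kb in replicate 2. It holds the fully covered tile.

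The domain at 1862420 to 1890553 (28.1 kb) was covered to 99.7% with 2 clusters in replicate 1, and to 98.1% with 3 in replicate 2. Its 26.5 kb cluster was the widest of replicate 1 on the distal X. Other domains among the 8 widest were broken up. That at 1187233 to 1215888 (28.7 kb) was split into 3 clusters in each replicate yet covered to 92.3% and 94.2%. That at 1029016 to 1054707 (25.7 kb) was split into 5 and 6 clusters and covered to 90.3% and 91.6%, with narrow breaks inside one domain.

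The remaining 3 of the 8 widest were 1139576 to 1158744 (19.2 kb), 2210385 to 2227299 (16.9 kb) and 1988400 to 2004368 (16.0 kb), covered to between 81.4% and 92.9% in both replicates. Among the 8, only the one at 2210385 had its midpoint outside the first megabase. The 5 widest each exceeded the widest series cluster of the middle X, which measured 20.1 kb. The megabase from 0 to 1 Mb, outside the distal X, held a series cluster of 40.4 kb, wider than any distal one. In the replicates, 6 distal clusters of replicate 1 and 3 of replicate 2 were wider than the widest of the middle X, 12.0 kb and 13.6 kb, and 5 and 3 of these lay in the first megabase.

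The series list held 30 clusters of 10 kb or more on the distal X and 50 on the middle X, 7.50 against 3.47 per Mb, or 4.25% and 1.82% of clusters, beside 2.76% of the whole list. The megabase from 0 to 1 Mb, outside the distal X, held 11. Of the 30 distal ones, 20 lay from 1 to 2 Mb, 3 from 2 to 3 Mb, 4 from 3 to 4 Mb and 3 from 4 to 5 Mb. Each of the 30 touched a cluster in each replicate, beside 340 of all 706 distal series clusters, or 48.2%. A wide cluster meets the rule of 1 bp more easily by its length, and the part of width was not tested. The median width of the 30 was 13.0 kb, and the replicates covered a median of 85.1% and 79.5% of them. The least covered was 4144197 to 4154872, of which replicate 1 covered 26.9% and replicate 2 covered 39.6%. Replicate 1 called 7 of the 30 as 1 cluster and replicate 2 called 5, and the rest were broken into up to 5 and 6 pieces.

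Outside the first megabase, the distal X had fewer wide domains per Mb, and examples follow. The one at 3738755 to 3751358 (12.6 kb, series score 0.997) was covered to 95.6% by replicate 1 in 1 cluster. Replicate 2 covered 90.1% of it in 3 clusters. Near it lay other wide series clusters, at 3789088 to 3802038 (13.0 kb) and 3809651 to 3821248 (11.6 kb). The one at 4525604 to 4539195 (13.6 kb, series score 1.03) was covered to 86.5% in 1 cluster and 81.0% in 2. The one at 3197275 to 3212733 (15.5 kb) was covered to 82.1% and 75.8% in 4 and 3 clusters.

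The authors' scores, given by their caller on a scale the labels do not name, were also higher on the distal X. The median score was 0.784 on the distal X and 0.746 on the middle X in replicate 1. In replicate 2 it was 0.750 on the distal X and 0.705 on the middle X. The difference was 0.0412 ± 0.00560 (SD, n = 2), larger than its spread between replicates. By megabase, the median was 0.857 and 0.782 from 1 to 2 Mb in replicates 1 and 2, above all 14 middle windows in each list. From 2 to 5 Mb the windows lay between 0.750 and 0.768 in replicate 1 and between 0.730 and 0.743 in replicate 2. This was within the range of the middle windows but above their median, 0.745 in replicate 1 and 0.700 in replicate 2. In replicate 2 only 1 of the 14 middle windows stood above each of them.

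Scores and widths moved together. Spearman's rho between width and score over the distal clusters was 0.679 in replicate 1 and 0.666 in replicate 2, against 0.638 and 0.609 on the middle X, as a description across clusters. Scores were therefore also compared within width classes. Among clusters of 5 kb or more, 51 and 44 on the distal X against 94 and 79 on the middle X, the median score was 1.02 and 0.946 on the distal X against 0.958 and 0.901 on the middle X. In the class from 2 to 5 kb it was 0.831 and 0.807 on the distal X against 0.828 and 0.776 on the middle X.

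The highest-scoring clusters were taken as those in the top 10% of the distal and middle X together, in each list. On the distal X they were 80 of 532 clusters in replicate 1, or 15.0%, and 76 of 506 in replicate 2, or 15.0%. On the middle X they were 8.51% and 8.55%. The first megabase held 27.3% and 22.9% in the top 10%, the next one 14.6% and 15.4%, and the last 2 between 6.98% and 10.2%.

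The highest series score of a distal region found in both replicates, 1.41, belonged to a compact cluster of 3.63 kb at 2023330 to 2026962. Replicate 1 covered 93.9% of it and replicate 2 covered 93.5%, each with 1 cluster. It lies just beyond the first megabase and is narrow, unlike the domains that follow it in score. Those were 1378575 to 1400906 (1.12), 1862420 to 1890553 (1.12) and 1304774 to 1343671 (1.10), which are also among the 8 widest.

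The next in score were narrower and all lay close together. They were 1454882 to 1462448 (7.57 kb, 1.05), 1366422 to 1372493 (6.07 kb, 1.05) and 1402205 to 1408402 (6.20 kb, 1.03). The last 2 stand on either side of the 22.3 kb block, so 3 of the 8 highest-scoring regions lie within 1366422 to 1408402. The eighth was the domain at 4525604 to 4539195. Of the 50 highest-scoring shared series clusters of the distal and middle X together, 20 lay on the distal X, and of the 50 widest 19 did. The distal X held 340 of 1471 shared clusters, or 23.1%. From 1 to 2 Mb lay 9 of the 20 highest-scoring and 13 of the 19 widest.

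Clusters were spaced more closely on the distal X. The median gap between clusters was 2213 bp and 2697 bp on the distal X in replicates 1 and 2, against 3045 bp and 3259 bp on the middle X. From 1 to 2 Mb it was 1291 bp and 1812.5 bp. From 3 to 4 Mb it was 3108 bp and 3949 bp.

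Stretches of 20 kb or more without a cluster in either replicate were found only in the last 2 megabases of the distal X. They numbered 8, or 2.00 per Mb, against 59 on the middle X, or 4.10 per Mb. They took up 6.84% of the distal X and 11.4% of the middle X, with a median length of 28.0 kb and 25.3 kb. Stretches of 40 kb or more took 2.15% of the distal X, all of it in 1 stretch, and 2.12% of the middle X, in 6. Counted by their start, the 8 distal stretches of 20 kb or more numbered 0 from 1 to 2 Mb and 0 from 2 to 3 Mb. There were 3 from 3 to 4 Mb and 5 from 4 to 5 Mb. The one at 3996999 to 4017309, counted from 3 to 4 Mb, lies mostly beyond 4 Mb.

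The longest lay at 3432033 to 3518033 and measured 86.0 kb, against 81.1 kb for the longest on the middle X. This order depended on the list. In replicate 1 alone the longest gaps were 86.0 kb on the distal X and 81.2 kb on the middle X. In replicate 2 alone they were 101.6 kb and 122.0 kb, and in the series list 26.9 kb and 71.0 kb. Series clusters covered 19.9% of the stretch at 3432033, in 14 clusters whose median score was 0.493. The next were 4838022 to 4874622 (36.6 kb, 18.3% under series clusters), 4920759 to 4953333 (32.6 kb, 11.4%) and 3632518 to 3660563 (28.0 kb, 15.3%). The last 4, at 4614441 to 4642440, 4897705 to 4919393, 4815825 to 4836247 and 3996999 to 4017309, measured between 20.3 kb and 28.0 kb. Each of the 8 held some sequence under a series cluster, from 7.10% to 30.8%.

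Empty tiles were few on both parts of X. Tiles without a cluster in both replicates numbered 6 of 200 on the distal X, or 3.00%, against 29 of 720 on the middle X, or 4.03%, and 7.16% of tiles on the arms. The direction turned against X 5 to 9 Mb alone, with 2.50%, and in tiles of 50 kb, with 1.25% on the distal X and 0.347% on the middle X. Tiles under 20% in both replicates numbered 41, or 20.5%, against 218, or 30.3%, and 25.6% over the arms. By megabase these were 0, 9, 15 and 17 from the telomere side. They formed 20 runs, of which 2 held 3 tiles or more, against 118 and 21 on the middle X. The longest distal run, 4800001 to 4980000 (180 kb, 9 tiles), was covered to 9.32% and 6.77% in replicates 1 and 2, and the other, 3420001 to 3580000 (160 kb, 8 tiles), to 6.72% and 6.11%. The middle X has runs of the same lengths, 180 kb at 9640001 to 9820000 and 160 kb at 15820001 to 15980000.

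The run at 4800001 ends just before the border with the middle X. Of the 4 clusters just inside the borders, all but the one of replicate 1 at the telomere side scored below the lower quartile of the distal X, 0.698 in replicate 1 and 0.663 in replicate 2. The last cluster inside was 4997639 to 4999470 in replicate 1, with a score of 0.628, and the first outside was 5000076 to 5003313, with 0.640. At the telomere-side border, the first cluster inside replicate 1 was 999415 to 1002365, with a score of 0.719, and the last outside was 992884 to 996956, with 0.783. In replicate 2 the scores were 0.659 inside and 0.723 outside at the border with the middle X, and 0.582 inside and 0.914 outside at the telomere side.

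The replicates overlapped more on the distal X than on the middle X. The Jaccard index, the bases covered in both replicates over those covered in either, was 0.626 on the distal X and 0.544 on the middle X. It was 0.736 from 1 to 2 Mb, 0.620 from 2 to 3 Mb, 0.540 from 3 to 4 Mb and 0.527 from 4 to 5 Mb. A higher coverage raises this index by itself, and its part in the difference was not tested. Of distal clusters, 78.4% of replicate 1 and 86.0% of replicate 2 touched a cluster of the other replicate, against 74.2% and 79.3% on the middle X.

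Clusters seen in 1 replicate alone were short and lower in score. On the distal X, 115 clusters of replicate 1 and 71 of replicate 2 touched no cluster of the other replicate. Their median width was 1582 bp and 1609 bp, against 2499 bp and 2228 bp for those that did. The median score was 0.711 and 0.696, against 0.806 and 0.759. The widest of them was 3.59 kb long, at 3988415 to 3992001 in replicate 1, and 97.4% of it lay under series clusters. The one with the highest score among the 5 widest, at 1441446 to 1444822 in replicate 1, scored 1.13.

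Of the series bases on the distal X, 47.4% were covered in both replicates, 27.6% in 1 and 25.0% in neither, against 37.8%, 31.2% and 31.1% on the middle X. The share in neither was 13.3% from 1 to 2 Mb and between 26.0% and 32.7% in the other 3. Of the series clusters, 220 of 706 on the distal X, or 31.2%, touched no replicate cluster, against 958 of 2749 on the middle X, or 34.8%. Their median width was 1363 bp on the distal X and 1298 bp on the middle X, and their median score was 0.472 and 0.449. The distal ones at 4625788 to 4626793 (1.01 kb) and 4630006 to 4631148 (1.14 kb) both scored 1.21, next to the highest series score of the distal X. Both lie inside the empty stretch at 4614441 to 4642440, and they were singled out after their values were seen. The lists hold 1, 0 and 31 regions typed as depleted in all, and 0 of them lay on the distal X.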

How the data were processed

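H3K9me1 cluster lists of the authors were used for 2 ChIP libraries, each with an input of the same replicate number per the labels, and for the whole series. The submitters' processing notes name Bowtie 0.12.7 (a read aligner), and coordinates are on FlyBase release 5, per the file headers. The deposited value is a signed cluster score given by the authors; its scale, the caller, the threshold and the making of the series list are not given in the sources used here. Scores were compared within a list only, and the series list has no n and no SD.

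Features typed as enriched were kept. Coverage is the percent of bases under clusters, and clusters were counted by midpoint. Clusters touch with at least 1 bp in common. The functions were tested on simulated lists. Named regions were the 8 highest-scoring and 8 widest series clusters shared by both replicates, the 8 most covered tiles, the 8 longest empty stretches, the 5 widest unshared clusters and those at the borders. The stretch, rules and cuts were chosen with earlier results of these data known. Read depth is unknown, so a stretch without a cluster is one without a call. Tiles and clusters are not replicates, so no p-value was computed over them. Alternatives covered the list, score threshold, comparison region, tile width, joining of clusters and lengths. Python 3.11.15, NumPy 2.4.6, pandas 2.3.3 and Matplotlib 3.10.9 were used.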

Additional observations from a re-analysis of the deposited data

How the results depend on the processing

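Values are distal X minus middle X. Of 64 alternative values, 16 leave out a replicate, which with 2 replicates says little about stability, and 4 are of the Jaccard index or the overlap, which has no spread between replicates. Of the other 44, 9 stayed within the spread between replicates, 30 moved further and 5 reversed; the cause was not tested. With the distal X cut to 2 to 5 Mb, a setting added after the data were seen, the coverage difference was 2.59 percentage points, density 5.98 per Mb, score 0.0218, median width 90 bp, wide clusters 0.153 per Mb, tiles without a cluster -0.0278 points, Jaccard index 0.0235 and empty stretches -2.32 points, and tiles of 80% or more reversed to -0.972 points. In the series list they were 7.32 points for coverage, 0.0321 for score, 297 bp for width, 4.03 per Mb for wide clusters, 10.6 points for tiles of 80% or more and -1.62 points for empty stretches, and density reversed to -14.4 per Mb. Against X 5 to 9 Mb they were 6.45 points for coverage, 0.875 per Mb for density, 0.0329 for score and 0.0851 for the Jaccard index, and tiles without a cluster reversed to 0.500 points. With at least the median score of the list, coverage differed by 10.0 points (10.1 with the median taken within X), density by 17.7 per Mb, width by 171.5 bp, tiles without a cluster by -3.11 points, the Jaccard index by 0.0898 and empty stretches by -10.4 points. With clusters under 500 bp apart joined, density differed by 5.99 per Mb and width by 247.5 bp. Clusters of 5 kb or more differed in score by 0.0519 and in number by 5.87 per Mb. Tiles without a cluster differed by -4.64 points in 10 kb tiles and reversed to 0.903 points in 50 kb tiles. Tiles of 80% or more differed by 0 in 50 kb tiles, where neither region had one, and those of 60% or more by 8.42 points. Empty stretches of 10 kb or more differed by -8.24 points, and those of 40 kb or more reversed to 0.0276 points. The share of clusters touching the other replicate differed by 5.41 points. Leaving out 1 replicate gave 2.89 to 4.61 points for tiles of 80% or more and -7.42 to -4.64 points for empty stretches. No paired analysis was possible because the groups that share replicate numbers are ChIP and input, and the lists analysed here are of ChIP libraries; the regions themselves were compared within each replicate. Stretches without clusters can only be called unmarked as far as the unknown depth allows.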
